A study of Mus musculus with 4 samples.

Results

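Platelet-lineage transcripts were followed in long-term haematopoietic stem cells (HSCs) of the mouse, which maintain blood formation. The 9 genes were taken by symbol from a list of megakaryocyte and platelet genes that are also expressed in platelet-biased stem cells, and all 9 had a row among the 23185 genes that carried a symbol. They encode the glycoproteins Gp9, Gp1bb and Gp5, the integrin chains Itga2b and Itgb3, the adhesion protein von Willebrand factor (Vwf), the chemokines Pf4 and Ppbp, and the receptor Treml1. Stem and progenitor cells (lineage-negative, c-Kit-positive, Sca-positive) received 0, 0.02, 0.1 or 0.5 Gy of γ-irradiation and were transplanted into lethally irradiated mice, and at 6 months the Flk2-negative, CD48-negative, CD150-positive fraction was sorted and profiled. All groups, 0 Gy included, therefore share the transplantation and the irradiation of the host. Each dose was measured on 1 array, so a difference between 2 doses has no error of its own and no test. The strain, sex and age of the mice and the number of animals per array are not stated, and the sort gate names no donor marker.

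Platelets are shed by megakaryocytes, and they carry their adhesion receptors and their granule contents from that cell. The GPIb-IX-V complex, to which Gp9, Gp1bb and Gp5 belong, binds von Willebrand factor on exposed matrix, and the integrin αIIbβ3, made of the Itga2b and Itgb3 chains, binds fibrinogen and links platelets to each other. Part of the mouse HSC pool transcribes several of these genes without being a megakaryocyte, and Vwf expression marks HSCs that are biased towards the platelet lineage.

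The values are log2 intensities deposited by the authors, 1 per gene. A level of one gene cannot be set against that of another on this scale, so each gene was compared with itself across doses. All 9 genes lay above 4.06, the median of all gene means, on every array. Of 8 measured long-term HSC markers, all 8 lay above that level on every array. This is no test of the sorted identity. Slamf1 and Kit, which are among the 8, encode CD150 and c-Kit, on which cells were selected. The level is also a low bar, since 11593 of the 23185 genes had a mean at or above it. Of 7 measured markers of mature megakaryocytes, 3 lay above it on every array. Gp6, the platelet collagen receptor, had values of 3.33, 2.83, 3.07 and 2.60 at 0, 0.02, 0.1 and 0.5 Gy, and Tubb1, the platelet-specific tubulin, had 2.97, 3.38, 3.07 and 2.92, all below it. Array medians over 25206 probe sets ranged from 4.01 to 4.07.

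Genes of cells outside the sort gate were measured as well. Flt3, which encodes Flk2, had 4.46, 4.76, 5.44 and 4.76 at 0, 0.02, 0.1 and 0.5 Gy and so lay above 4.06 on every array. Cd48 had 4.13, 3.08, 4.11 and 4.13, above it on 3 of the 4. With Cd34 they make up the 3 markers of multipotent progenitors, which summed to 15.6, 19.3 and 18.6 at 0.02, 0.1 and 0.5 Gy, against 17.3 at 0 Gy. Of 8 neutrophil markers, 3 lay above 4.06 on every array, and the 8 summed to 38.8, 51.7 and 41.8 at 0.02, 0.1 and 0.5 Gy, against 34.5 at 0 Gy. Mpo, the myeloperoxidase gene, had 6.44, 8.75 and 7.07 at these doses, against 4.78 at 0 Gy. The 0.1 Gy array thus had the highest neutrophil sum, but not every marker was highest there. Prtn3 had 7.60, 8.81, 8.04 and 8.21 at 0, 0.02, 0.1 and 0.5 Gy, and Elane had 3.54, 4.09, 6.09 and 6.28. Of 5 B-cell markers, 2 lay above 4.06 throughout, and the sums were 24.2, 20.5 and 19.1, against 20.5 at 0 Gy. Of 4 mast cell and basophil markers 0 did, with sums of 12.4, 14.01 and 12.2, against 11.9 at 0 Gy.

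Upstream sequence is shown for a gene of each of 3 patterns described below. Gp5 had its highest value at 0.5 Gy, Itga2b at 0.02 Gy and Pf4 at 0 Gy. The stretches are the 250 bases before the annotated RefSeq start in assembly GRCm38.p6, 5′ to 3′ on the gene's strand. Capitals mark GATAA, a core bound by GATA factors, and GGAAG, a core bound by ETS factors such as Fli1. Each motif was read on both strands, and other forms of these cores were not searched for. No matches overlap in the stretches shown.
Gp5 (chr16:30310782-30311031, minus strand): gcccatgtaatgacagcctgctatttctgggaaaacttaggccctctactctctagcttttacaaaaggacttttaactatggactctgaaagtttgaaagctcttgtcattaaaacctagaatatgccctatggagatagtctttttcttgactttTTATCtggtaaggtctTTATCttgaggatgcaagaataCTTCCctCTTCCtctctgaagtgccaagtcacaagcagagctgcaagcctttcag
Itga2b (chr11:102469884-102470133, minus strand): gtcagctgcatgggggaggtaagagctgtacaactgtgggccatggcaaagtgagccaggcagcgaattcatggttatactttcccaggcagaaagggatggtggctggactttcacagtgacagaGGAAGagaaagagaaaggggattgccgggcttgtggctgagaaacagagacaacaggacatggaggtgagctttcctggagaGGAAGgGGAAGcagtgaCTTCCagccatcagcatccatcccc
Pf4 (chr5:90772185-90772434, plus strand): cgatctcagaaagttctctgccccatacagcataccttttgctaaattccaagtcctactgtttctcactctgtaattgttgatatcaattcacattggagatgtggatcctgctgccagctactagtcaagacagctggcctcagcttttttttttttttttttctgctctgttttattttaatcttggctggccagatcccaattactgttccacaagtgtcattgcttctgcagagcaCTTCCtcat

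The Gp5 stretch held GATAA at 2 places, 93 and 77 bases before the start, and GGAAG at 2. Itga2b held GGAAG at 4 places, 3 of them within 42 bases of the start, and Pf4 held it once, 9 bases before the start. Of the 7 genes with an upstream sequence in the table used, 7 held GGAAG and 2, Gp5 and Gp9, held GATAA. Among all 32851 upstream stretches of the same length, 64.1% held GGAAG and 22.6% held GATAA, so GGAAG is a common string. A match in letters is a description of the window and not evidence of binding.

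Across the 4 arrays, 7 of the 9 genes stayed within a 2-fold range, and the other 2, Vwf and Gp1bb, did not. The range was 1.85 for Vwf and 1.19 for Gp1bb on the log2 scale, and it ran from 0.10 for Treml1 to 0.72 for Ppbp in the rest. Among the 11593 genes whose mean reached the median of gene means, the median range was 0.41 and 12.2% had a range of 1 or more. The plot of each gene by dose shows these profiles.

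**Figure D1:**
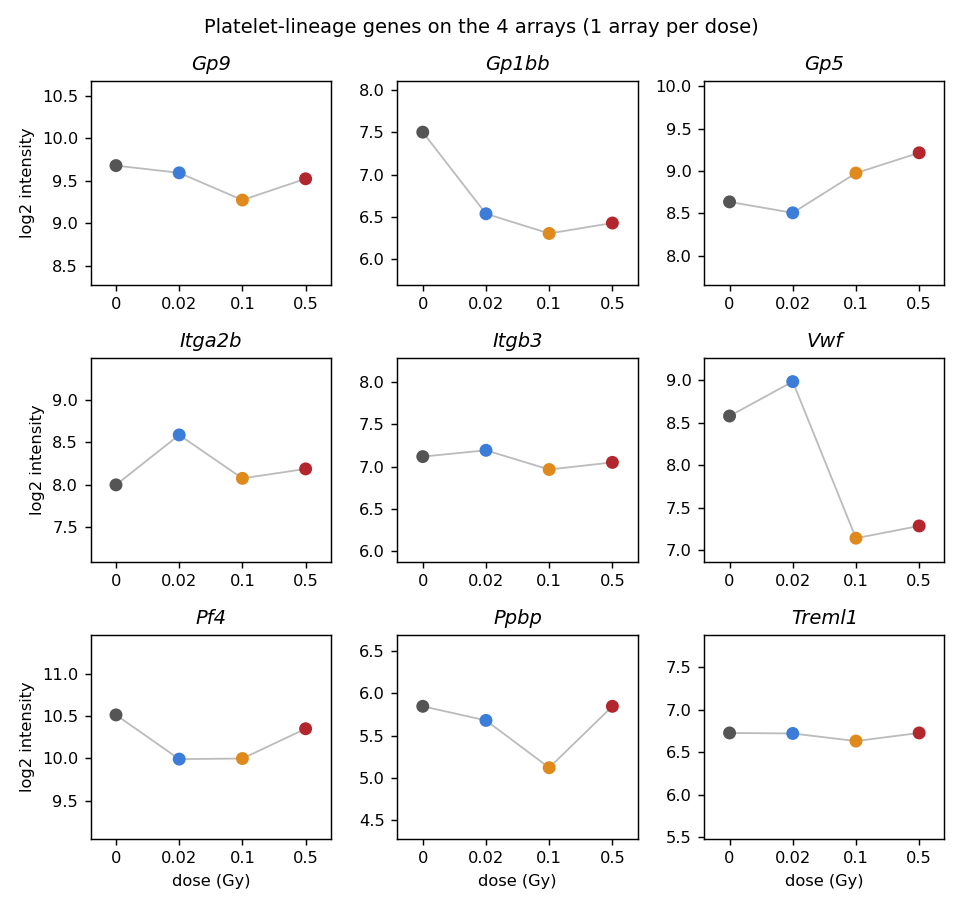
Deposited log2 intensity (vertical axis, each panel spanning the same 2.4 log2 units) of the 9 platelet-lineage genes against γ-irradiation dose in Gy (horizontal axis, equally spaced), with 1 point per array and no replicates. Vwf is low at 0.1 and 0.5 Gy, Gp1bb is low on all 3 irradiated arrays, and Treml1 lies between 6.63 and 6.73 throughout.

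The glycoproteins of the von Willebrand factor receptor did not follow a single profile. Gp1bb, the β chain of the receptor, gave log2 values of 7.50, 6.54, 6.30 and 6.43 at 0, 0.02, 0.1 and 0.5 Gy. The 3 irradiated arrays were close to each other and all below the 0 Gy array. Relative to 0 Gy, Gp1bb was 1.95-fold lower at 0.02 Gy, 2.29-fold at 0.1 Gy and 2.10-fold at 0.5 Gy. These 3 differences share the 0 Gy array, and among the irradiated arrays Gp1bb differed by at most 0.23. In the kept genes, 95.5%, 97.3% and 96.0% had a smaller absolute difference from 0 Gy at those doses. In a bulk sample, fewer cells of a type and less RNA per cell cannot be told apart. The summed log2 level of the 7 mature megakaryocyte markers was 31.9, 32.2 and 31.6 at 0.02, 0.1 and 0.5 Gy, against 33.1 at 0 Gy. Of the 7, 4, 3 and 4 were below 0 Gy at these doses. Gp6, low on every array, differed from 0 Gy by -0.50, -0.26 and -0.73, and F2rl2 by -0.50, 0.14 and 0.33. The sum of 7 endothelial markers was 38.8, 39.0 and 38.8, against 42.5 at 0 Gy, with 6 of the 7 below 0 Gy at each dose. Of kept genes, 45.5%, 45.7% and 47.3% were below 0 Gy at 0.02, 0.1 and 0.5 Gy. Of the 7 endothelial markers, 1, 3 and 2 were past 1.5-fold, all lower, against 12.6%, 13% and 14.2% of kept genes in either direction. The marker Sox18 alone differed by -2.43, -1.97 and -1.97, and Tie1 by 0.10, -0.01 and 0.02. The part of these cell types in the Gp1bb difference was not tested.

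In the RefSeq annotation, Gp1bb overlaps the septin gene Septin5 by 593 bases, so the Gp1bb row can include signal from both. Septin5, looked up after the Gp1bb values were seen, had 4.59, 6.03, 4.55 and 5.50 at 0, 0.02, 0.1 and 0.5 Gy. Its part in the Gp1bb values was not tested.

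Gp9, the small subunit needed to bring the complex to the cell surface, had 9.68, 9.59, 9.27 and 9.52 at 0, 0.02, 0.1 and 0.5 Gy. All 3 irradiated arrays were below 0 Gy, but the difference of largest size, at 0.1 Gy, was 1.33-fold.

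Gp5, the subunit cleaved by thrombin, had another profile. Its values were 8.64, 8.51, 8.98 and 9.22 at 0, 0.02, 0.1 and 0.5 Gy, so the 2 higher doses gave the 2 higher values. Gp5 was 1.63-fold higher at 0.5 Gy than at 0.02 Gy, and 1.49-fold higher at 0.5 Gy than at 0 Gy, just short of the 1.5-fold level used for counting. With quantile normalization, median centring or cyclic loess it passed that level. Gata1, the erythroid and megakaryocytic transcription factor, had the same order, with 7.72, 7.33, 8.10 and 8.84, as did 278 of the 6231 kept genes with 4 different values. The summed log2 level of 7 measured erythroid markers was 36.8, 43.0 and 44.3 at 0.02, 0.1 and 0.5 Gy, against 37.3 at 0 Gy, and their part in the Gp5 values was not tested.

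The integrin chains differed less. Itga2b, which encodes CD41, had 7.9997, 8.5885, 8.0764 and 8.1881 at 0, 0.02, 0.1 and 0.5 Gy. Only the 0.02 Gy array stood apart, 1.504-fold above 0 Gy, and under median centring this gene no longer reached 1.5-fold there. Its partner Itgb3, which encodes CD61, had 7.12, 7.19, 6.96 and 7.05, a range of 1.17-fold, and 27.6% of kept genes had a smaller range. Itgav, the α chain that pairs with Itgb3 in many cells other than platelets, lay between 5.87 and 5.89 on all 4 arrays.

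Vwf had the widest range of the 9 genes. The multimeric protein it encodes is made by megakaryocytes and endothelial cells. Its log2 values were 8.58, 8.98, 7.14 and 7.28 at 0, 0.02, 0.1 and 0.5 Gy, with a wide gap between the 2 lower and the 2 higher doses. Relative to 0 Gy it was 1.32-fold higher at 0.02 Gy, 2.71-fold lower at 0.1 Gy and 2.46-fold lower at 0.5 Gy. Against the 0.02 Gy array, which leaves the 0 Gy array out, it was 3.60-fold lower at 0.1 Gy and 3.25-fold lower at 0.5 Gy. The 0.1 and 0.5 Gy arrays differed by 1.11-fold.

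Vwf is also an endothelial gene. Of 7 measured endothelial markers, 4 lay above 4.06 on every array, namely Pecam1, Emcn, Tie1 and Tek. Kdr lay above it on 1 array and Sox18 on 3. From a bulk sample this count does not tell which cells expressed them. The sum of all 7 was lower on the 3 irradiated arrays, as given beside Gp1bb. The widest difference among the 7 was that of Sox18, an endothelial transcription factor gene, with 3.91, 4.38 and 4.38 at 0.02, 0.1 and 0.5 Gy, against 6.35 at 0 Gy. Cdh5, the endothelial cadherin, was below 4.06 on all 4 arrays, between 3.13 and 3.53. The 8 HSC markers summed to 66.5, 60.0 and 61.6 at 0.02, 0.1 and 0.5 Gy, against 61.7 at 0 Gy. Like Vwf, all 8 were lower at 0.1 Gy and at 0.5 Gy than at 0.02 Gy, as were 41.6% and 44.0% of kept genes. Against 0 Gy, 5 of the 8 were lower and 3 higher at 0.1 Gy, and again at 0.5 Gy. Their median differences from 0 Gy were -0.21 and -0.07 at 0.1 and 0.5 Gy, where Vwf had -1.44 and -1.30. The erythroid, progenitor and neutrophil sums given above were all higher at 0.1 and 0.5 Gy than at 0 and 0.02 Gy, opposite to Vwf. The B-cell sum, also given above, was highest at 0.02 Gy, as Vwf was, and lowest at 0.5 Gy. The part of these cell types in the Vwf values was not tested.

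The chemokines and Treml1 complete the set. Pf4 and Ppbp are stored in the α-granules, and their genes are neighbours on chromosome 5 with 2371 bases between them. Pf4 had 10.51, 9.99, 10.00 and 10.35 at 0, 0.02, 0.1 and 0.5 Gy, and Ppbp had 5.84, 5.68, 5.12 and 5.84. Pf4 was 1.43-fold lower than at 0 Gy on both the 0.02 and the 0.1 Gy array, whereas Ppbp was 1.65-fold lower at 0.1 Gy and had the identical value at 0 and 0.5 Gy. Treml1, a platelet α-granule membrane receptor, had 6.73, 6.72, 6.63 and 6.73, again identical at 0 and 0.5 Gy. Such exact ties are common in these data: 46.3% of kept genes had one.

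The first question of the design was how each irradiated sample differed from the unirradiated one. At 0.02 Gy, 2 of the 9 genes were past 1.5-fold, Itga2b higher and Gp1bb lower, where 8.86% of all named genes and 12.6% of kept genes were past it in either direction. At 0.1 Gy, 3 were past it, Vwf, Gp1bb and Ppbp, all lower, against 8.93% of named and 13% of kept genes. At 0.5 Gy, 2 were past it, Vwf and Gp1bb, both lower, against 9.75% of named and 14.2% of kept genes. With 9 genes and no replicates these counts are descriptions of single arrays.

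The median log2 difference of the 9 genes from 0 Gy was -0.09, -0.41 and -0.07 at 0.02, 0.1 and 0.5 Gy, and the median of all kept genes was 0.00 at each dose. At 0.1 Gy, 7 of the 9 lay below their 0 Gy value, and Itga2b and Gp5 above it. Of kept genes, 45.7% lay below and 38.1% above in that comparison. The plot of differences from 0 Gy sets each gene against the spread of the kept genes.

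**Figure D2:**
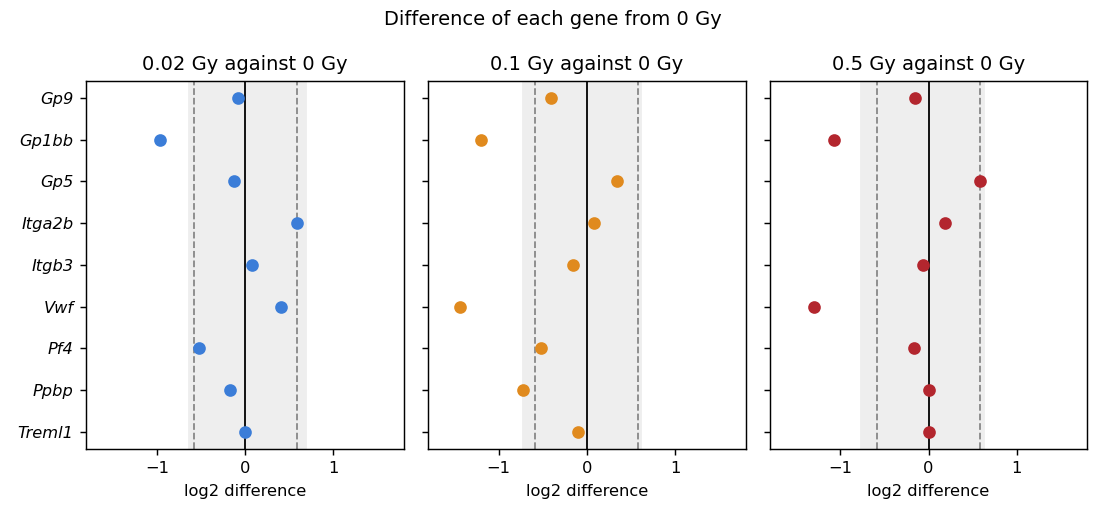
Log2 difference from 0 Gy (horizontal axis) of each of the 9 genes (rows) at 0.02, 0.1 and 0.5 Gy, 1 point per gene. The grey band spans the 5th to the 95th percentile of 11593 kept genes and the dashed lines mark 1.5-fold. Gp1bb lies left of the band at all 3 doses, and Vwf at 0.1 and 0.5 Gy.

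Irradiated arrays were also compared with each other. Between 0.1 and 0.02 Gy, 1 of the 9 genes, Vwf, was past 1.5-fold, against 9.62% of named and 14.1% of kept genes. Between 0.5 and 0.02 Gy, 2 were, Gp5 higher and Vwf lower, against 9.9% of named and 14.5% of kept genes. Between 0.5 and 0.1 Gy it was 1, Ppbp, which was higher, against 8.52% of named and 12.4% of kept genes. In that last pair all 9 genes had the higher value at 0.5 Gy, with a median difference of 0.14, and this count was also 9 with quantile normalization, median centring and cyclic loess. Of kept genes, 42.0% were above and 43.3% below. Apart from Ppbp these differences were small, from 0.08 for Itgb3 to 0.35 for Pf4.

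The 3 irradiated arrays were then set against the 0 Gy array with limma, a linear model across all kept genes in which the irradiated arrays stand in for replicates although their doses differ, and the lone 0 Gy array is assumed to vary as they do. Gp1bb averaged 6.42 ± 0.12 (SD, n = 3) in irradiated samples and was 7.50 in the single 0 Gy sample. The difference was -1.08 with a standard error of 0.12, lower in 3 of 3 irradiated arrays, and its Benjamini-Hochberg adjusted p in limma was 0.21. Vwf averaged 7.80 ± 1.03 (SD, n = 3) in irradiated samples and was 8.58 at 0 Gy, with a limma difference of -0.78, a standard error of 1.03 and an adjusted p of 1. Without the 0.02 Gy array the Vwf difference was -1.37, with a limma adjusted p of 0.31. The other 7 genes had limma adjusted p between 0.75, for Pf4, and 1.

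None of the 9 genes passed limma at an adjusted p of 0.05, and neither did any other gene: 0 of 11593 genes, 0%, were called, while 1260 had an unadjusted p under 0.05. A straight line in dose called 0 genes (0%) as well, with 1425 at an unadjusted p under 0.05. The lowest adjusted p of the 9 in that fit was 0.45, for Gp5, with a slope of 1.21 per Gy and a standard error of 0.41. Without the 0.5 Gy array that slope was 4.10 per Gy, with a limma adjusted p of 0.70. Each fit has 2 residual degrees of freedom, so a large p here does not show that the levels were alike.

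**Figure D3:**
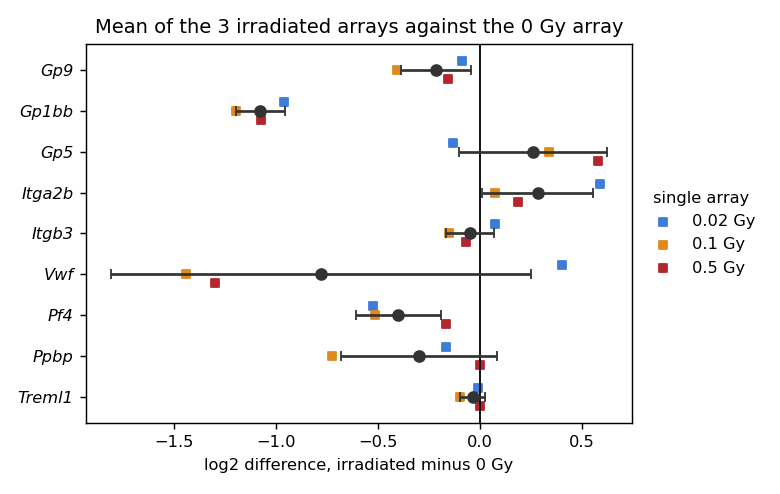
Difference between irradiated samples and the 0 Gy sample in log2 intensity (horizontal axis) for the 9 genes (rows). Black points are the limma estimates with bars of 1 standard error, and coloured squares are the 3 single irradiated arrays. The squares of Gp1bb lie together at about -1.08, and those of Vwf lie on both sides of 0.

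Other genes of the lineage were counted by role, beside the 8.86%, 8.93% and 9.75% of named genes, or 12.6%, 13% and 14.2% of kept genes, that were past 1.5-fold from 0 Gy at 0.02, 0.1 and 0.5 Gy. Of 12 megakaryocyte transcription factors, 1 was past 1.5-fold at 0.02 Gy, 0 at 0.1 Gy and 1 at 0.5 Gy. Mafg, a small Maf partner of Nfe2, had 7.18, 6.07, 6.64 and 6.64 at 0, 0.02, 0.1 and 0.5 Gy, and Gata1 was 1.12 above 0 Gy at 0.5 Gy. Fli1, an ETS factor of the lineage, lay between 9.97 and 10.25, Runx1 between 9.35 and 9.63, and Nfe2, which drives platelet release, between 10.23 and 10.49. The factor medians were -0.03, -0.06 and 0.04 at 0.02, 0.1 and 0.5 Gy.

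Of 9 measured receptors for ADP, thrombin, thromboxane and related signals, 0, 1 and 1 were past 1.5-fold at 0.02, 0.1 and 0.5 Gy. P2ry1, an ADP receptor, had 6.70, 6.33, 6.03 and 6.33 at 0, 0.02, 0.1 and 0.5 Gy. The mouse platelet thrombin receptor gene F2rl3 had 9.10, 8.85, 8.70 and 8.66. Both were below 0 Gy on all 3 irradiated arrays, and P2ry1 was the gene past 1.5-fold at 0.1 Gy. The gene past it at 0.5 Gy was P2rx1, an ATP-gated channel, with a difference of -0.73. The thrombin receptor genes F2r and F2rl2 had another profile, with differences from 0 Gy of -0.48, 0.27 and 0.31 for F2r and -0.50, 0.14 and 0.33 for F2rl2 at 0.02, 0.1 and 0.5 Gy. Of the 9 genes, 7, 3 and 4 were below 0 Gy at these doses, and the medians were -0.25, 0 and 0.

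Of 10 measured adhesion receptors and partners, 2, 1 and 1 were past 1.5-fold at the 3 doses. Pear1, a platelet contact receptor, had 6.27 at 0 Gy and 7.48, 6.86 and 6.69 at 0.02, 0.1 and 0.5 Gy, so it was 1.22 above 0 Gy at 0.02 Gy. Clec1b, the podoplanin receptor, was between 4.16 and 4.69, near the filter level. Of 9 other integrin chains, 1, 0 and 0 were past 1.5-fold. Of 12 measured genes for the cytoskeleton, granule formation and integrin activation, 1, 0 and 1 were.

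Of 10 measured genes for granule cargo and membrane proteins, 5, 7 and 6 were below 0 Gy at 0.02, 0.1 and 0.5 Gy, and 2 were past 1.5-fold at 0.02 Gy, 4 at 0.1 Gy and 5 at 0.5 Gy, all lower, and the medians were 0.03, -0.19 and -0.39. Selp, which encodes P-selectin, had 8.12, 8.69, 6.97 and 6.99 at 0, 0.02, 0.1 and 0.5 Gy. Clu, which encodes clusterin, had 8.54, 8.90, 6.50 and 7.09. Both followed the split of Vwf, high at 0 and 0.02 Gy and low at 0.1 and 0.5 Gy. The order of Vwf across doses was that of 356 of the 6231 kept genes with 4 different values. Among the 8 measured HSC markers, Fgd5, Hoxb5 and Mecom had this order too. Fgd5 had 5.40, 6.24, 4.69 and 5.01 at 0, 0.02, 0.1 and 0.5 Gy. Slamf1, Procr, Hlf, Ctnnal1 and Kit had other orders, and Procr, with 6.79, 8.17, 7.09 and 7.64, was lowest at 0 Gy. Pdgfb, a platelet growth factor chain, had 4.80, 4.01, 3.51 and 4.07, partly below the filter level. Mmrn1, which encodes multimerin, had 8.82, 8.89, 8.21 and 8.12.

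**Figure D4:**
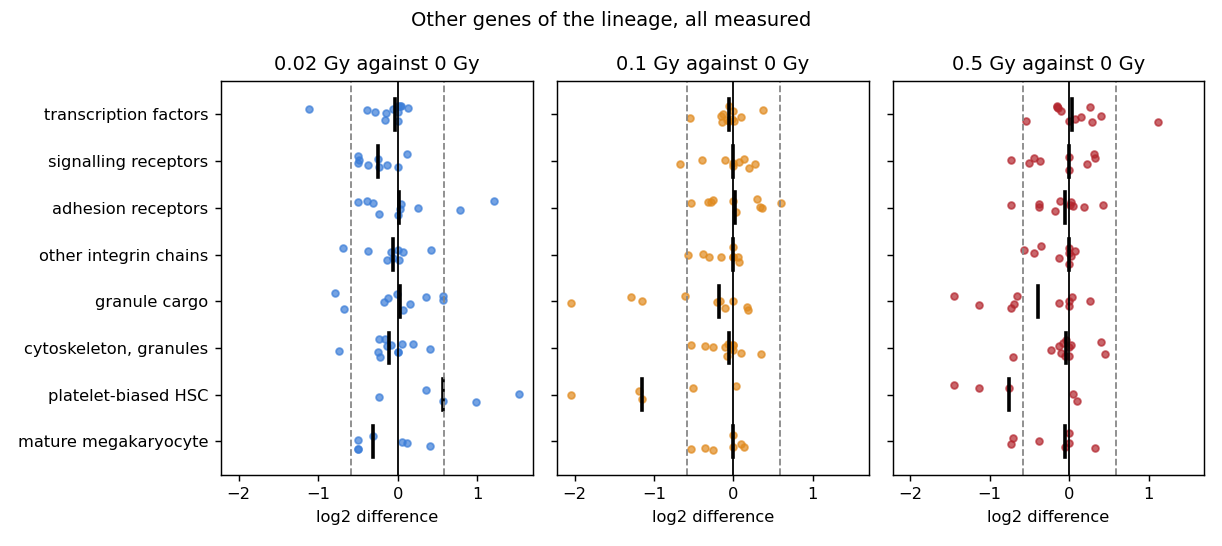
Log2 difference from 0 Gy (horizontal axis) of every measured gene of 8 lists (rows) at 0.02, 0.1 and 0.5 Gy. Points are genes with vertical jitter, black bars are list medians and dashed lines mark 1.5-fold, and some genes stand in more than 1 list. The platelet-biased HSC list has medians of 0.57, -1.15 and -0.75 at these doses, and the transcription factor medians lie near 0.

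A list of 5 measured genes reported in Vwf-positive or platelet-biased HSCs held Selp and Clu together with Slamf1, Cd9 and Clca3a1. Of these, 2 were past 1.5-fold at 0.02 Gy, both higher, and 3 at 0.1 Gy and 3 at 0.5 Gy, all lower. Among all kept genes, 12.6%, 13% and 14.2% were past it in either direction. Clca3a1, a chloride channel accessory gene, had 8.45, 9.97, 7.26 and 7.70 at 0, 0.02, 0.1 and 0.5 Gy. Slamf1, which encodes the CD150 used in the sort, had 7.67, 8.65, 7.16 and 7.77 at 0, 0.02, 0.1 and 0.5 Gy. It was highest at 0.02 Gy and lowest at 0.1 Gy. Cd9, a tetraspanin of megakaryocytes, lay between 9.43 and 9.71 and did not show the split.

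**Figure D5:**
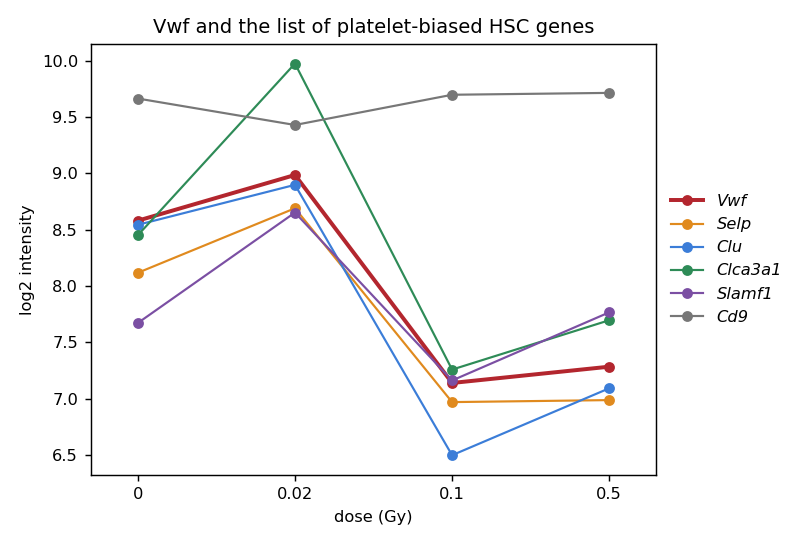
Deposited log2 intensity (vertical axis) of Vwf and 5 genes of the platelet-biased HSC list at each dose in Gy (horizontal axis, equally spaced), 1 array per dose. Heights of different genes are not comparable. Vwf, Selp, Clu and Clca3a1 are lower at 0.1 and 0.5 Gy than at 0 Gy, and Cd9 stays between 9.43 and 9.71.

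The profiles of Vwf and Gp1bb were then matched against 1105 other kept genes with a range of at least 1 log2 unit, by the Euclidean distance between the 3 differences from 0 Gy. Nearest to Vwf were Gchfr, a regulator of tetrahydrobiopterin synthesis, at a distance of 0.26 and the syndecan gene Sdc4 at 0.28, and Selp ranked 4 at 0.38. Of the other platelet-biased HSC genes with such a range, Clu ranked 19, Clca3a1 181 and Slamf1 434. Sdc4 had 6.27, 6.61, 4.72 and 5.23 at 0, 0.02, 0.1 and 0.5 Gy. Nearest to Gp1bb were Alg14, an enzyme of protein glycosylation, at 0.09 and Mrps27, a mitochondrial ribosomal protein gene, at 0.10. Gp1bb and Vwf were 1.41 apart. With 3 differences from a shared control, such likeness is a description over 4 arrays.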

How the data were processed

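Per the labels, biotinylated cDNA from total RNA of sorted cells was made with an Affymetrix whole-transcript assay, and the submitters' processing notes name Partek, with no role or version. The deposited values are log2 intensities, 1 per Entrez gene. No source states the log base, and 2 was taken from the range, 1.22 to 13.0. How background and normalization were handled, and on which annotation, is not given in the sources used here. Precision is limited by the number of arrays, 1 per dose.

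Values were used as deposited. Of 25206 probe sets, 23185 had 1 gene symbol in the platform table, none had several, and 2021 without one were not analysed. A total of 9 genes of the lists had no named row and are not analysed here. The fits used limma 3.58.1 in R 4.3.3 on 11593 genes whose mean over the 4 arrays reached 4.06, the median of gene means. They were tested on simulated data, where most planted 2-fold changes were not called. Differences between single arrays have no test. They were counted at 1.5-fold over all 9 genes.

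Members, lists and naming rule were chosen with earlier results of these data known. The text names all members, genes of the 8 platelet-lineage lists at least 2-fold from 0 Gy at any dose, a fixed set of well-known lineage genes, and the 2 nearest profiles to each member with a range of 1 log2 unit or more. Further list genes, the cell type markers, and Septin5 and other neighbouring genes, were chosen after their values were seen. Upstream sequences are from RefSeq, GRCm38.p6. Alternatives were 3 scalings (quantile normalization, cyclic loess, median centring), other filters, a 2-fold level, an intensity trend, other dose scales and leaving out each irradiated array.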

Additional observations from a re-analysis of the deposited data

How the results depend on the processing

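Of the 54 differences of the 9 genes over 6 pairs of arrays, no past-1.5-fold difference changed sign under quantile normalization, median centring or cyclic loess, and the shift of largest size was 0.10. At 0.02 Gy against 0 Gy, the count past 1.5-fold was 1 with median centring and 0 at 2-fold, against 2 as reported. At 2-fold the count was 1 between 0.5 and 0.02 Gy and 0 between 0.5 and 0.1 Gy. Without the filter on low values, limma called 213 of 23185 genes between irradiated samples and 0 Gy, 89 higher and 124 lower, none of the 9 among them, and Gp1bb had its lowest adjusted p there, 0.13. Its adjusted p over the alternatives reached 0.60. Leaving out each irradiated array gave counts of 0 to 0 in both limma fits, and the stricter filter, which kept 7729 genes, also gave 0. Without the 0.1 Gy array the Vwf difference was -0.45 and without the 0.5 Gy array -0.52. No paired analysis was possible because each dose has 1 array and the labels give no replicate numbers. With 1 array per dose, the spread between mice was not measured.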

Other observations

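Genes beside the platelet genes on the chromosomes were looked up after the values of the 9 genes were known. Of the 5 CXC chemokine genes that flank Pf4 and Ppbp, 0 lay above 4.06 on every array. Cxcl2, a neutrophil attractant, had 3.665, 5.524, 4.997 and 4.633 at 0, 0.02, 0.1 and 0.5 Gy. Its order across doses was unlike that of Pf4, which had its highest value at 0 Gy. Atp13a3, a P-type ATPase gene next to Gp5, had 6.01, 6.85, 7.31 and 6.85. Gpatch8, next to Itga2b, had 7.79, 8.35, 7.81 and 5.80, a log2 difference from 0 Gy of -1.99 at 0.5 Gy, where Itga2b had 0.19. Ano2, next to Vwf, stayed between 3.25 and 3.39.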
